A study of Homo sapiens with 12 samples.

Results

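The genes described here are 36 genes of the protein synthesis machinery and of small nucleolar RNA (snoRNA) production, out of 26318 genes in the deposited table. They were taken by name from a list of translation genes of the terminal oligopyrimidine type and of snoRNA host genes, and all 36 were found and passed the filter on low counts. By role they are 5 elongation factor genes, 1 gene of eIF2, 9 of eIF3, 4 of the eIF4 group, 2 poly(A) binding protein genes, 5 genes of proteins that act on or near the ribosome, and 10 snoRNA host genes. Messenger RNA was sequenced from TMD8, an established lymphoma line (diffuse large B cell lymphoma, ABC or activated B cell type). The 6 IRF4 shRNA libraries came from cells with a short hairpin RNA that lowers the messenger of IRF4, a transcription factor of activated B cells and plasma cells, and the 6 control libraries from cells with a scramble shRNA. Pellets were taken at 24 h from this 1 cell line, although a further label numbers the line upward from TMD8 across libraries while every title says TMD8. The labels do not give the hairpin sequences, how the hairpins were delivered or induced, or whether replicates are separate cultures, so a p-value speaks of the spread among these libraries alone, and that spread may be technical. Library names carry a number 1 or 2 of unstated meaning, and the 3 IRF4 shRNA and 3 control libraries that share a number are called library series 1 and 2.

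Translation starts when eIF2 brings the initiator transfer RNA and eIF3 and the eIF4 factors load the small ribosomal subunit onto a capped messenger, and elongation factors then move the ribosome along it. Many of these genes, like those of ribosomal proteins, begin transcription at a C followed by a run of pyrimidines (C or T), the terminal oligopyrimidine (TOP) sequence, through which the mTORC1 kinase pathway and the RNA-binding protein LARP1 govern their messengers. Host genes of snoRNAs carry guide RNAs for ribosomal RNA modification in their introns. Several have the same kind of start, and spliced transcripts of several, GAS5 among them, are known substrates of nonsense-mediated decay, a pathway coupled to translation.

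RefSeq promoter windows (build GRCh38.p14) were held for 26 of the 36 genes, and the other 10 were EEF1D, EIF3A, EIF3E, EIF3G, EIF3H, EIF3L, PABPC1, PABPC4, SNHG6 and SNHG15. The 30 bases around the annotated start are shown for examples with and without a pyrimidine start that fell or rose, 15 before and 15 from the start on, written 5′ to 3′. Capitals mark the unbroken pyrimidine run that begins with C at the start.
EIF3F (chr11:7987322-7987351, plus strand): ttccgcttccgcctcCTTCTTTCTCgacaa
EEF1A1 (chr6:73521018-73521047, minus strand): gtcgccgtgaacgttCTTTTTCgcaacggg
BTF3 (chr5:73498427-73498456, plus strand): tgtcacttccggcctCCCTTTagctgccat
EEF2 (chr19:3985449-3985478, minus strand): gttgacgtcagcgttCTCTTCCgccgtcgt
EIF4B (chr12:53006441-53006470, plus strand): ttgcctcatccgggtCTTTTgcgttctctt
ZFAS1 (chr20:49278627-49278656, plus strand): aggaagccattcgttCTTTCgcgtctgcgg
TPT1 (chr13:45341169-45341198, minus strand): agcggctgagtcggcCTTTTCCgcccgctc
EIF4A2 (chr3:186783562-186783591, plus strand): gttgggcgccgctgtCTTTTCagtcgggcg
EEF1B2 (chr2:206159594-206159623, plus strand): gccggaagtggccccagcctcgaggccggg
SNHG8 (chr4:118278747-118278776, plus strand): aaggcctcggcctttcacattcgggaagcg
EEF1G (chr11:62573877-62573906, minus strand): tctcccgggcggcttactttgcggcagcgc
EIF4G1 (chr3:184314591-184314620, plus strand): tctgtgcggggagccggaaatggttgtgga
EIF3B (chr7:2354812-2354841, plus strand): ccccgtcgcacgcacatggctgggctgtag
The first 8 begin with such a run, and all but EIF4A2 among them fell with IRF4 shRNA. The other 5 have no such run at the annotated start, and of these EEF1B2, SNHG8 and EEF1G fell while EIF4G1 and EIF3B rose.

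A C at the start followed by at least 4 pyrimidines was found in 16 of the 26 genes (61.5%), against 4.04% of 27305 RefSeq promoters and 5.46% of the 10294 of tested genes. The genes were listed as being of this type, so the share describes the choice. A run of at least 8 pyrimidines with a C in it, within 20 bases of the start, was found in 15 of 26 (57.7%), against 17.1% and 16.6%. On both strands of the 300-base windows (250 bases before the start and 50 from it), CACGTG was held by 5 genes (19.2%, against 7.43% of all promoters and 10.4% of those of tested genes), TATAAA by 4 (15.4%, against 11.95% and 5.98%) and CCAAT by 7 (26.9%, against 35.7% and 36.9%). A pair of GAAA spaced by 2 letters of any kind, the core of the interferon response element, was held by 1 gene, EIF3K, or 3.85% against 3.65% of all promoters and 3.23% of those of tested genes. GGAA followed after 2 such letters by GAAA, the composite element of ETS factors with IRF4, and TGANTCA, the AP-1 element, were held by 0 genes, against 2.84% and 7.76% of all promoters and 2.76% and 4.39% of those of tested genes. The pyrimidine start and the run of at least 8 can be the same letters and often were, and the GAAA pair and the GGAA composite can share letters. The RefSeq start lay within 50 bases of the start in the deposited table for 9 of the 26 genes, so a start used in TMD8 may differ from the one searched.

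Totals ran from 31.9 to 38.2 M estimated counts in IRF4 shRNA libraries and from 31.3 to 36.04 M in controls (M, 1e+06 counts). A floor of 3 counts was 0.0786 to 0.0959 counts per 1e+06 counts (CPM), far under the level of each of the 36 genes. IRF4 itself had 507, 607 and 715 CPM in IRF4 shRNA libraries (lowest, median and highest) against 1426, 1468 and 1569.8 CPM in controls, without overlap, with log2 fold change -1.28 (SE 0.09, edgeR adjusted p = 1.41e-08) and an exact two-sided permutation p of 0.00216, the smallest that 6 against 6 can give. Of the B cell markers, CD79A, which encodes a chain of the B cell receptor complex, had 1086, 1128 and 1158 CPM with IRF4 shRNA and 615, 653 and 725 CPM in controls, and PAX5, a transcription factor of B cell identity, had 1161, 1189 and 1207 CPM with IRF4 shRNA and 959, 1087 and 1122 CPM in controls. Summed markers of T cells, myeloid cells and epithelium stayed under 1 CPM in every library, and those of fibroblasts (COL1A1, COL1A2 and DCN) reached 7.41 and 5.27 CPM at most in IRF4 shRNA and control libraries. The libraries also leaned by GC content of the transcripts, with control replicates 5 and 6 farthest toward GC-rich genes (Spearman's rho across genes of 0.438 and 0.615) and control replicate 3 farthest the other way (-0.526). This touches several GC-rich genes below, and values without these controls or without the GC trend are given there.

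Most of the 36 transcripts were lower with IRF4 shRNA. Together they took 2.12 to 2.18% of all counts in IRF4 shRNA libraries and 2.92 to 3.02% in controls, so the ranges did not overlap. The 10 snoRNA hosts alone took 0.0714 to 0.0765% in IRF4 shRNA libraries and 0.0896 to 0.0993% in controls. By edgeR's quasi-likelihood test at an adjusted p under 0.05, 28 of the 36 fell, 4 rose and 4 did not pass, where 23.9% of the 16437 genes tested fell and 24.2% rose (48.2% in either direction). Among the 7704 genes at or above the mean level of the least abundant of them (18.5 CPM), 28.0% fell and 26.7% rose. The median log2 fold change was -0.48, against -0.0056 over all genes tested. In 26 genes every IRF4 shRNA library lay below every control (14.7% of genes tested) and in 2 every one lay above (16.2%). Falls of at least 1.5-fold were found in 14 of the 36, against 7.75% of genes tested, and rises of that size in 0, against 10.2%. The 4 that rose were SNHG15, EIF4G1, EIF4A2 and EIF3B. When libraries were scaled by size alone rather than by TMM, the trimmed mean of M-values, rises made up 63.9% of all calls rather than 50.3%, the median of all genes was 0.07 and that of the 36 was -0.41, and 26 of the 36 fell and 4 rose. In bulk RNA, fewer cells of a kind and less RNA per cell cannot be told apart, and CPM gives a transcript's share of the library, not its amount per cell.

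**Figure D1:**
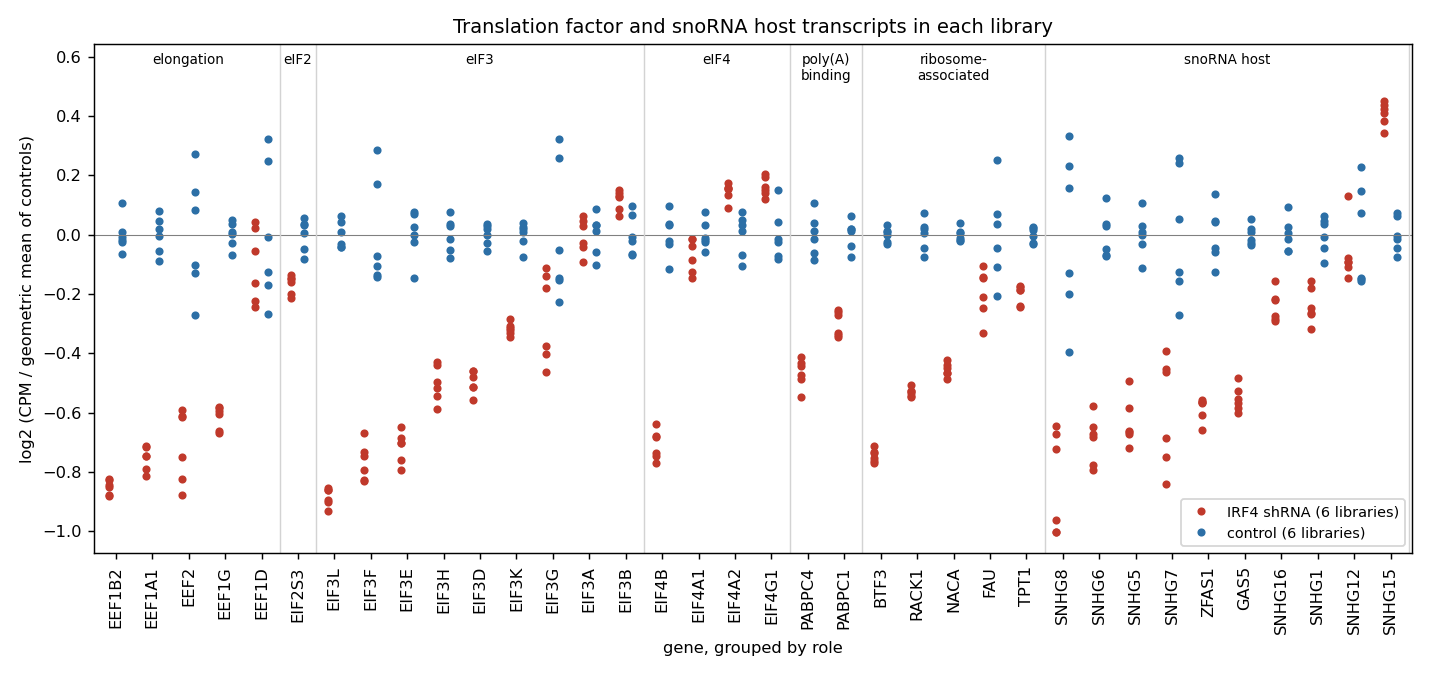
Level of each of the 36 transcripts in the 12 libraries, as log2 of CPM over the geometric mean of the 6 controls, with IRF4 shRNA libraries in red to the left of controls in blue, 1 point per library. In 26 genes all red points lie below all blue ones, in SNHG15 and EIF4A2 all lie above, and EEF1D, EIF3G, FAU, SNHG7, SNHG8 and EIF3F show a wide spread among controls.

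Elongation factor transcripts fell in 4 of 5 genes, with log2 fold changes from -0.85 to -0.62. EEF1B2, part of the exchange complex that reloads the elongation factor eEF1A with GTP (chromosome 2, 206159585 to 206162928, plus strand, hg38), had 321, 329 and 334 CPM in IRF4 shRNA libraries (lowest, median and highest) against 565, 586 and 636 CPM in controls. The groups did not overlap and lay tightly within themselves, with log2 fold change -0.85 (SE 0.03, edgeR adjusted p = 1.07e-11). EEF1A1, which encodes eEF1A, the carrier of aminoacyl transfer RNA to the ribosome (chromosome 6, 73515750 to 73523797, minus strand), had 6419.9, 6730.5 and 6889.6 CPM with IRF4 shRNA and 10622, 11355 and 11943 CPM in controls, again without overlap, or 59.3% of the control mean with log2 fold change -0.75 (SE 0.03, edgeR adjusted p = 8.12e-11). EEF1G, the scaffold of the exchange complex, stood at 65.2% of control, with a log2 fold change of -0.62 (SE 0.03). EEF2, which translocates the ribosome along the messenger (chromosome 19, 3976056 to 3985463, minus strand), had 1342, 1538 and 1638 CPM with IRF4 shRNA and 2045, 2456 and 2982 CPM in controls, a wide control range that still lay wholly above the IRF4 shRNA libraries, with log2 fold change -0.72 (SE 0.08, edgeR adjusted p = 4.49e-06).

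EEF1D, a further exchange factor subunit (chromosome 8, 143579697 to 143599541), was the exception. It had 173, 190.2 and 211 CPM with IRF4 shRNA and 170.4, 196 and 256 CPM in controls, and the groups overlapped, with log2 fold change -0.12 (SE 0.09, edgeR adjusted p = 0.34). At 62.3% it has the highest median transcript GC content of the 36. After the GC trend of the libraries was removed its log2 fold change was -0.16 (adjusted p = 2.43e-05), and without control replicates 5 and 6 it was 0.04 (adjusted p = 0.639), so the direction itself depended on these choices.

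Among initiation factors, eIF2 was represented by EIF2S3, the subunit that binds GTP and initiator transfer RNA. It had 346, 359.6 and 365 CPM in IRF4 shRNA libraries (lowest, median and highest) against 378, 406 and 416 CPM in controls, a small difference without overlap, with log2 fold change -0.17 (SE 0.03, edgeR adjusted p = 3.42e-04).

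The subunits of eIF3, the large factor that holds the small ribosomal subunit ready for initiation, did not move as one. Of the 9 tested here, 7 fell, EIF3B rose and EIF3A did not pass. EIF3L (chromosome 22, 37848868 to 37889407, plus strand) had 371, 385 and 391 CPM in IRF4 shRNA libraries (lowest, median and highest) against 687, 701 and 738 CPM in controls, the largest fall of all 36 genes with log2 fold change -0.88 (SE 0.03, edgeR adjusted p = 3.63e-12). EIF3F (chromosome 11, 7970251 to 8001862, plus strand) had 104, 109 and 117 CPM with IRF4 shRNA and 168, 174 and 226 CPM in controls. These groups did not overlap either, with log2 fold change -0.77 (SE 0.07, edgeR adjusted p = 3.60e-07). EIF3E, EIF3H, EIF3D and EIF3K stood at 60.9%, 70.6%, 70.9% and 80.2% of the control mean, all without overlap of the groups, with adjusted p from 1.28e-09 (EIF3E) to 2.87e-07 (EIF3K).

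EIF3A and EIF3B form the core on which the other subunits assemble. EIF3A (chromosome 10, 119033670 to 119080823, minus strand) had 317, 338 and 353 CPM with IRF4 shRNA and 314, 343 and 359 CPM in controls, which overlapped almost fully, with a fold change of -0.0042 on the log2 scale (SE 0.04, edgeR adjusted p = 0.939), and its sign turned with library size alone (0.07). EIF3B (chromosome 7, 2354086 to 2380745, plus strand) had 245, 257 and 260.2 CPM with IRF4 shRNA and 224, 232 and 251 CPM in controls, which overlapped because control replicates 5 and 6 lay above the lowest IRF4 shRNA library, with log2 fold change 0.12 (SE 0.03, edgeR adjusted p = 0.0125). EIF3G, the subunit that binds RNA through a recognition motif, had 98.5, 112 and 126 CPM with IRF4 shRNA and 116, 127 and 169.8 CPM in controls. Its groups overlapped, and its log2 fold change -0.29 (SE 0.10, edgeR adjusted p = 0.0256) did not hold without control replicates 5 and 6 (-0.13, adjusted p = 0.129). It also missed the threshold when libraries were scaled by size alone, and without control replicate 5 or 6 or IRF4 shRNA replicate 4, 5 or 6 (adjusted p from 0.0529 to 0.081). With the replicate number as a block it missed as well (edgeR adjusted p = 0.0838). EIF3G passed as lower in 14 of 23 alternatives, removal of the GC trend among them.

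The eIF4 group, which binds the cap and unwinds the messenger's leader, held both directions. EIF4B, which stimulates the helicase (chromosome 12, 53006282 to 53042215, plus strand), fell and had 461, 481 and 505 CPM in IRF4 shRNA libraries (lowest, median and highest) against 727, 789.6 and 842 CPM in controls, with log2 fold change -0.71 (SE 0.04, edgeR adjusted p = 6.87e-10). EIF4G1, the scaffold of the cap-binding complex (chromosome 3, 184314495 to 184335358, plus strand), rose, with 462, 474 and 489.8 CPM with IRF4 shRNA and 402, 419 and 472 CPM in controls. The highest control, replicate 6, lay within the IRF4 shRNA range, and the gene had log2 fold change 0.16 (SE 0.04, edgeR adjusted p = 0.00296).

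The helicase itself is encoded by the close paralogs EIF4A1 and EIF4A2. EIF4A2 (chromosome 3, 186783205 to 186789897, plus strand) had 644, 673 and 683 CPM with IRF4 shRNA and 562, 614 and 638 CPM in controls, so that every IRF4 shRNA library lay above every control, with log2 fold change 0.14 (SE 0.03, edgeR adjusted p = 0.00269). EIF4A1 (chromosome 17, 7572824 to 7579006, plus strand) had 390.3, 414 and 427 CPM with IRF4 shRNA and 415, 427 and 456 CPM in controls, which overlapped, with log2 fold change -0.07 (SE 0.03, edgeR adjusted p = 0.102). Scaled by library size alone, the value of EIF4A1 was 0.0044 (adjusted p = 0.928), so no direction is given for it. The difference between the paralogs was not tested.

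Poly(A) binding proteins coat the messenger's tail and bridge it to EIF4G1, and both genes measured fell. PABPC4 (chromosome 1, 39560816 to 39576790, minus strand) had 85.4, 90.8 and 93.6 CPM with IRF4 shRNA and 118, 125 and 134 CPM in controls, without overlap and with log2 fold change -0.47 (SE 0.04, edgeR adjusted p = 9.60e-08). PABPC1, the main form in most cells (chromosome 8, 100685816 to 100722809), had 1392, 1435 and 1482 CPM with IRF4 shRNA and 1677, 1788 and 1848 CPM in controls, also without overlap and with log2 fold change -0.30 (SE 0.03, edgeR adjusted p = 1.14e-06).

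All 5 genes of proteins that act on or near the ribosome fell. BTF3, the beta subunit of the nascent polypeptide-associated complex, which meets new chains at the ribosome exit (chromosome 5, 73498408 to 73505635, plus strand), had 275, 279.6 and 286 CPM in IRF4 shRNA libraries (lowest, median and highest) against 458, 469 and 478 CPM in controls, with log2 fold change -0.74 (SE 0.02, edgeR adjusted p = 4.47e-12). NACA, the alpha subunit of the same complex, stood at 73.0% of control without overlap, a log2 fold change of -0.45 (SE 0.02). RACK1, a scaffold protein of the small ribosomal subunit (chromosome 5, 181236897 to 181248096, minus strand), had 1510.0, 1526 and 1553 CPM with IRF4 shRNA and 2092, 2223 and 2321 CPM in controls, at 69.2% of control. TPT1, the translationally controlled tumour protein, had 2029, 2111 and 2128 CPM with IRF4 shRNA and 2348, 2409.6 and 2447 CPM in controls, a difference that was small but without overlap, with log2 fold change -0.20 (SE 0.02, edgeR adjusted p = 9.01e-06). FAU, whose product is cleaved to a ribosomal protein and a ubiquitin-like protein, had 171, 190.2 and 199.7 CPM with IRF4 shRNA and 186, 215 and 256 CPM in controls, which overlapped. Its log2 fold change -0.20 (SE 0.07, edgeR adjusted p = 0.019) missed the threshold with library size alone (adjusted p = 0.105), without control replicates 5 and 6 (0.0579) and without IRF4 shRNA replicate 4, 5 or 6 (0.0557 to 0.0745). With the replicate number as a block it missed as well (edgeR adjusted p = 0.071). FAU passed as lower in 16 of 23 alternatives, removal of the GC trend among them. The span of FAU overlaps that of SYVN1 on the same strand, so reads in the shared stretch can be assigned to either.

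Of the 10 snoRNA host genes 8 fell, SNHG15 rose and SNHG12 did not pass, with a median log2 fold change of -0.57. SNHG8 (chromosome 4, 118278709 to 118285316, plus strand) had 58.7, 65.8 and 75.2 CPM in IRF4 shRNA libraries (lowest, median and highest) against 89.3, 119 and 148 CPM in controls. The control values spread widely but lay above all IRF4 shRNA values, with log2 fold change -0.85 (SE 0.12, edgeR adjusted p = 2.41e-05). SNHG6 (chromosome 8, 66921684 to 66926398) had 62.8, 68.1 and 72.9 CPM with IRF4 shRNA and 104, 108 and 119 CPM in controls, without overlap and with log2 fold change -0.69 (SE 0.05, edgeR adjusted p = 1.01e-08). SNHG5 and SNHG7 stood at 64.5% and 65.9% of control. GAS5, the growth arrest transcript that hosts several snoRNAs (chromosome 1, 173858559 to 173868882, minus strand), stood at 68.2% with a log2 fold change of -0.55 (SE 0.03), and ZFAS1 at 66.5% with -0.59 (SE 0.04). SNHG1 and SNHG16 fell least, to 84.8% and 84.7% of control. In all 8 that fell, the groups did not overlap.

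SNHG15 (chromosome 7, 44983023 to 44986961, minus strand) was the host that rose, with 74.2, 78.3 and 80.1 CPM in IRF4 shRNA libraries (lowest, median and highest) against 55.6, 58.2 and 61.7 CPM in controls. All IRF4 shRNA libraries lay above all controls, with log2 fold change 0.41 (SE 0.04, edgeR adjusted p = 2.28e-07). SNHG12 had 17.0, 17.7 and 20.7 CPM with IRF4 shRNA and 16.9, 18.4 and 22.1 CPM in controls, which overlapped, with log2 fold change -0.07 (SE 0.08, edgeR adjusted p = 0.481). Its sign turned without control replicates 5 and 6 (0.03) or when libraries were scaled by size alone (0.0038).

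Overlapping genes limit some of these values, as the sources used here do not say whether counting used the strand marked by the kit. ZFAS1 overlaps the span of ZNFX1 on the opposite strand, which averaged 246 CPM with IRF4 shRNA and 105 CPM in controls (per library total), the reverse of ZFAS1. GAS5 overlaps ZBTB37, and EIF3B overlaps SNX8 (62.6 CPM with IRF4 shRNA and 32.1 CPM in controls), both on the opposite strand. The snoRNAs themselves were read in 1 row within the span of a member, SNORA63 inside EIF4A2, which rounded to 0 counts in every library.

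Both library series were then fitted alone. In series 1 28 of the 36 fell and 3 rose, against 24.6% and 25.8% of genes tested there (50.5% in all). In series 2 29 fell and 2 rose, against 17.9% and 20.2% (38.1% in all). The median log2 fold change was -0.46 in each. The falls passed in both series in 26 of the 36 genes, and SNHG15 was the 1 gene whose rise passed in both. The share of all genes tested that passed in both was not counted. It cannot exceed the 17.9% that fell or the 20.2% that rose in series 2. IRF4 itself was left at a mean of 519 CPM in series 1 and 702 CPM in series 2, with log2 fold changes of -1.53 (SE 0.04) and -1.05 (SE 0.04). EEF1B2 had log2 fold changes of -0.84 (SE 0.03) in series 1 and -0.86 (SE 0.05) in series 2, BTF3 of -0.75 (SE 0.03) and -0.73 (SE 0.04), and RACK1 of -0.53 (SE 0.03) and -0.53 (SE 0.05).

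**Figure D2:**
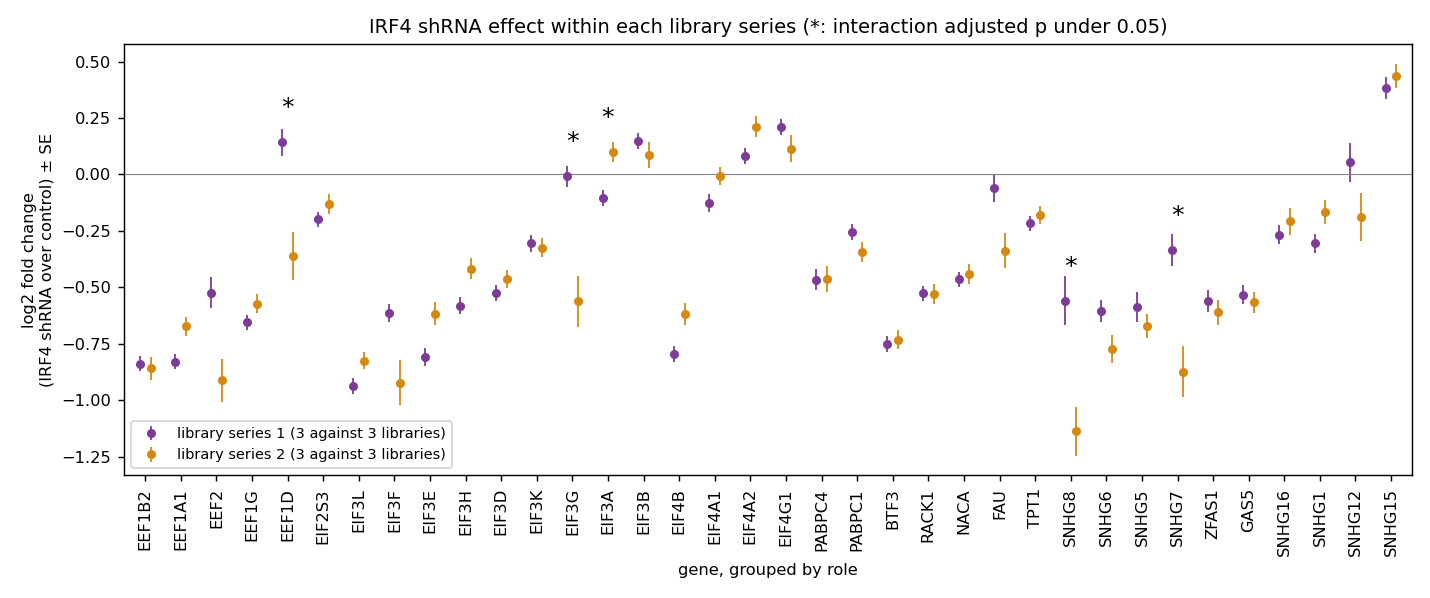
Log2 fold change of each gene (IRF4 shRNA over control) with its SE, fitted within library series 1 (purple, 3 against 3 libraries) and series 2 (orange, 3 against 3). The 5 genes marked with a star passed the test of the difference between series, with EEF1D at 0.14 and -0.36 and SNHG8 at -0.56 and -1.14.

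The test of the difference itself, series 2 minus series 1, passed for 5 of the 36 genes, 4 with a negative and 1 with a positive difference, where 7.99% of genes tested passed with a negative and 5.03% with a positive one. It was negative for EIF3G (-0.57, SE 0.14, edgeR adjusted p = 0.0192), EEF1D (-0.52, adjusted p = 0.0272), SNHG7 (-0.56, adjusted p = 0.0283) and SNHG8 (-0.60, adjusted p = 0.0444), and positive for EIF3A (0.18, adjusted p = 0.0449). EIF3G had 119.9 to 126 CPM with IRF4 shRNA against 116 to 131 CPM in controls in series 1, which overlapped. In series 2 it had 98.5 to 105 CPM with IRF4 shRNA against 122 to 169.8 CPM in controls, which did not. EEF1D had 197 to 211 CPM with IRF4 shRNA against 170.4 to 204 CPM in controls in series 1 and 173 to 183 CPM with IRF4 shRNA against 188 to 256 CPM in controls in series 2. SNHG7 had 46.4 to 48.8 CPM with IRF4 shRNA against 53.0 to 66.4 CPM in controls in series 1 and 35.7 to 39.7 CPM with IRF4 shRNA against 57.3 to 76.4 CPM in controls in series 2, lower with IRF4 shRNA in both.

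SNHG8 had 71.2 to 75.2 CPM with IRF4 shRNA against 89.3 to 131 CPM in controls in series 1 and 58.7 to 60.4 CPM with IRF4 shRNA against 108 to 148 CPM in controls in series 2. EIF3A had 317 to 331 CPM with IRF4 shRNA against 341 to 359 CPM in controls in series 1, all lower with IRF4 shRNA, and 344 to 353 CPM with IRF4 shRNA against 314 to 345 CPM in controls in series 2, where the ranges overlapped. EEF1D, EIF3G and SNHG7 have the highest median transcript GC contents of the 36 genes, at 62.3, 60.0 and 59.9%, while SNHG8 has 42.1% and EIF3A 43.2%. The 2 controls farthest toward GC-rich genes, replicates 5 and 6, both belong to series 2. With the GC trend removed the difference was 0.002 (adjusted p = 0.987) for EEF1D, -0.26 (adjusted p = 0.0294) for EIF3G, -0.26 (adjusted p = 0.0657) for SNHG7, -0.73 (adjusted p = 0.0253) for SNHG8 and 0.07 (adjusted p = 0.376) for EIF3A. Without control replicates 5 and 6, 0 of the 36 passed (202 of all genes), and with 1 library left out in turn between 0 and 17 passed. The lowest counts came without IRF4 shRNA replicate 1 or 6 (0 each), where 856 and 723 of all genes passed. The highest came without control replicate 4 (17) or control replicate 1 (9). Without control replicate 4, 5244 of all genes passed, against 2248 with every library, so the count of the 36 rose along with that of all genes.

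**Figure D3:**
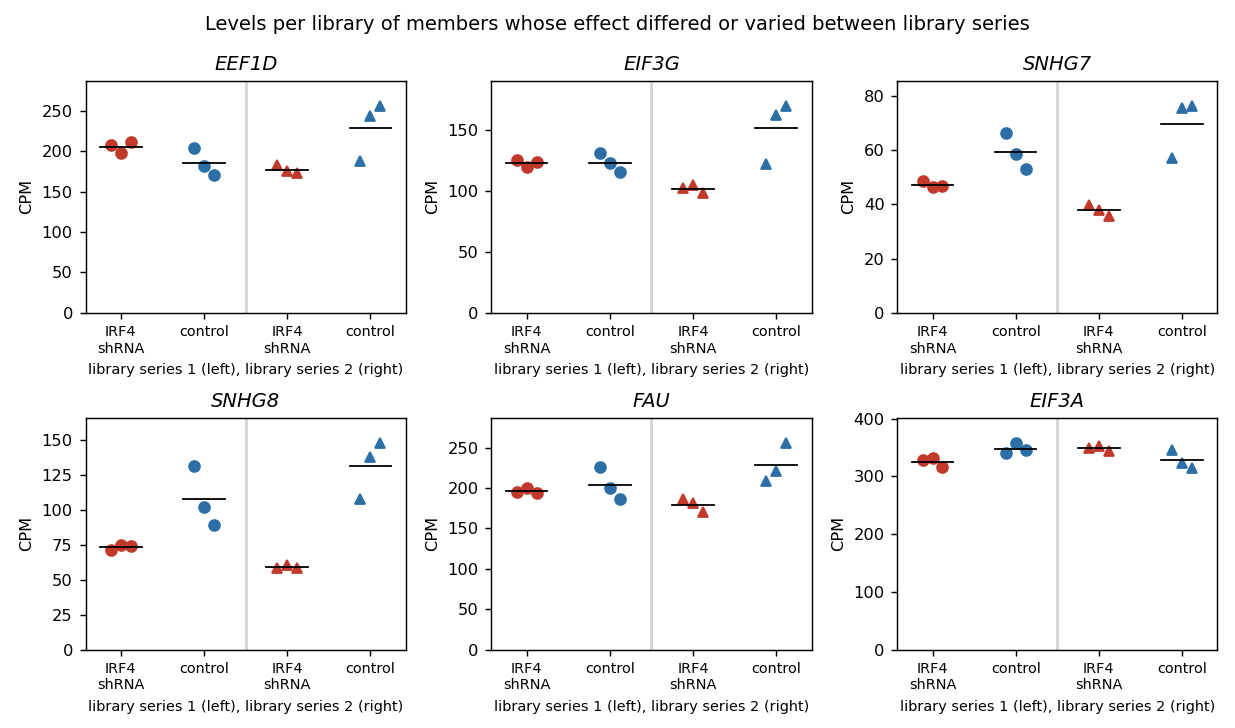
CPM of 6 genes in each library, with library series 1 to the left and series 2 to the right of the grey line, IRF4 shRNA in red and control in blue, and a black bar at the mean of 3 libraries. In EEF1D, EIF3G and SNHG7, 2 of the 3 series 2 controls (replicates 5 and 6) stand above all other libraries.

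Several of these genes have processed pseudogenes, copies without introns that can take reads of the parent gene in counting. The table held 85 rows named as numbered copies of a member, and 14 of them, from 9 parent genes, averaged at least 10 CPM (a copy on the Y chromosome is not reported here). All 14 had the same sign as their parent, and 13 fell. EEF1A1P5 averaged 5365 CPM with IRF4 shRNA and 9084 CPM in controls, not far from EEF1A1 itself at 6697 and 11302 CPM. EEF1B2P3 had a log2 fold change of -0.84 (SE 0.03) beside -0.85 (SE 0.03) for EEF1B2, and EIF4BP6 of -0.74 (SE 0.03) beside -0.71 (SE 0.04) for EIF4B. EIF4A1P10, like EIF4A1, did not pass (-0.08, adjusted p = 0.059). When the counts of each gene and its copies were summed and the whole table refitted, 28 fell and 4 rose as before, and no gene's log2 fold change moved by more than 0.0255.

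**Figure D4:**
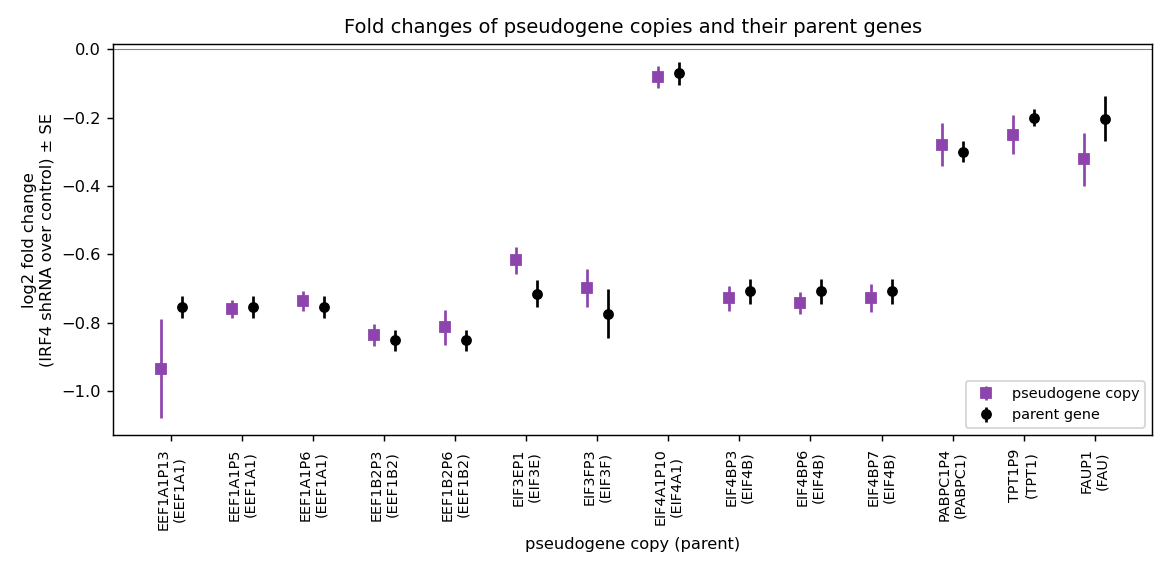
Log2 fold change (IRF4 shRNA over control) with its SE for 14 pseudogene copies of at least 10 CPM (purple squares) and for the parent gene of each (black circles). Copy and parent lie within 0.18 of each other in every pair, and all values are negative.

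Other genes of the same pathways were read from lists, against the same 23.9% of tested genes that fell and 24.2% that rose. Cytosolic ribosomal protein genes, known for TOP messengers, fell in 74 of 80 tested and rose in 1, with a median log2 fold change of -0.48, beside -0.48 for the 36 genes. RPL5, of the large subunit, had 904 ± 18.7 CPM with IRF4 shRNA and 1667 ± 28.9 CPM in controls, and the gene that rose was RPS26 (16.4 ± 0.960 CPM with IRF4 shRNA and 14.1 ± 1.09 CPM in controls; n = 6 each). Among 20 tested genes listed as other snoRNA hosts, 14 fell and 1 rose, with a median of -0.50. SNHG29, DANCR and SNHG20 fell to 51.8%, 51.2% and 68.2% of control, with log2 fold changes of -0.95 (SE 0.03), -0.97 (SE 0.05) and -0.55 (SE 0.05). The listed gene that rose was MIR17HG (0.38, edgeR adjusted p = 0.00823). It hosts the miR-17 cluster of microRNAs rather than snoRNAs, so no other snoRNA host passed as higher. Scaled by library size alone, 71 of the ribosomal protein genes fell and 1 rose, and 12 of the genes listed as other hosts fell and 4 rose.

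Other initiation factors were divided, with 12 of 31 lower, 6 higher and a median of -0.06. With library size alone 7 were lower and 8 higher. When 1 library was left out, 8 to 11 were lower and 6 to 7 higher. EIF2A and the eIF3 subunit EIF3M fell to 73.2% and 80.9% of control. EIF4EBP1, an inhibitor of the cap-binding protein, fell to 68.0%, with 29.2 ± 1.31 CPM with IRF4 shRNA and 43.0 ± 5.21 CPM in controls (n = 6 each). EIF4G3, a relative of EIF4G1, rose and had 147 ± 3.42 CPM with IRF4 shRNA and 100.1 ± 6.21 CPM in controls, without overlap of the groups and with log2 fold change 0.56 (SE 0.04, edgeR adjusted p = 2.90e-08). EIF5B and EIF4EBP2 rose to 120.0% and 112% of control. Of 10 other elongation, termination and recycling factors 1 fell and 2 rose. EEF2K, the kinase that inhibits eEF2, fell to 57.2% of control, with 81.2, 86.2 and 93.3 CPM with IRF4 shRNA and 142, 152 and 157 CPM in controls and log2 fold change -0.81 (SE 0.04, edgeR adjusted p = 3.92e-10). The 2 that rose were GTPBP1 and GSPT2, to 120.2% and 116%, while 5 rose with library size alone.

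Of 30 regulators of TOP messengers and mTORC1, 9 fell and 8 rose (median 0.04). DEPTOR, an mTOR inhibitor, fell at a low level (0.928 ± 0.0970 CPM with IRF4 shRNA and 1.94 ± 0.234 CPM in controls), and LARP4B and TSC1 fell to 86.5% and 83.4% of control. SESN3, a stress-induced inhibitor of mTORC1, had 2.94 ± 0.289 CPM with IRF4 shRNA and 0.790 ± 0.266 CPM in controls, and FNIP2 1.57 ± 0.152 CPM with IRF4 shRNA and 0.581 ± 0.181 CPM in controls (n = 6 each). LAMTOR2, of the lysosomal platform of mTORC1, rose to 119%. With library size alone, 15 of the list rose and 6 fell. Among 13 proteins of snoRNA particles 2 fell and 0 rose, against 1 and 4 with library size alone. Those that fell were FBL, the methyltransferase fibrillarin, at 76.6% of control, and RUVBL1 at 88.9%. Nonsense-mediated decay factors had 4 of 18 lower and 4 higher, with EIF4A3 at 81.5%, UPF3A at 88.6% and SMG1 at 90.2% of control among the falls and SMG5, MAGOH and SMG9 at 109%, 117% and 113% among the rises. With library size alone 2 of these were lower and 7 higher. Small counts here moved with single libraries: 2 decay factors were lower without control replicate 2, 3 or 4 or IRF4 shRNA replicate 1, 2, 3 or 5, and 1 snoRNA particle protein was higher without control replicate 6 or IRF4 shRNA replicate 1, 2 or 3. Genes listed as other hosts that rose numbered 2 without control replicate 3 or IRF4 shRNA replicate 1, 2 or 3. They numbered 3 without IRF4 shRNA replicate 5. Without control replicate 6, 2 other elongation factors were lower.

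Set by the annotated start, the 16 genes with a pyrimidine start had 14 lower, 1 higher (EIF4A2) and 1 that did not pass (SNHG12), with a median log2 fold change of -0.51. The 10 genes without one had 7 lower, 2 higher (EIF4G1 and EIF3B) and 1 that did not pass (EIF4A1), with a median of -0.40. Both kinds reached similar extremes, with EIF3F at -0.77 among genes with a pyrimidine start and EEF1B2 at -0.85 among those without, and with so few genes no difference between the kinds was tested. Leaving out these genes and the ribosomal proteins, 502 tested genes had a pyrimidine start, of which 37.6% fell and 17.9% rose. The 9687 genes without one had 23.1% lower and 28.5% higher. The medians were -0.08 and 0.02, and the median transcript GC contents 50.5 and 49.7%. With the GC trend removed, 38.8% and 25.9% fell and 21.5% and 33.3% rose. With library size alone, 29.7% and 16.4% fell and 25.3% and 37.7% rose. The medians were then -0.0024 and 0.09, so genes with such a start fell and rose in nearer shares under this scaling. Leaving out control replicates 5 and 6, 39.1% and 26.0% fell and 21.7% and 30.8% rose. These settings were chosen after seeing the data. These shares are a description across genes, which are not independent replicates, and what else genes with such starts have in common was not tested.

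**Figure D5:**
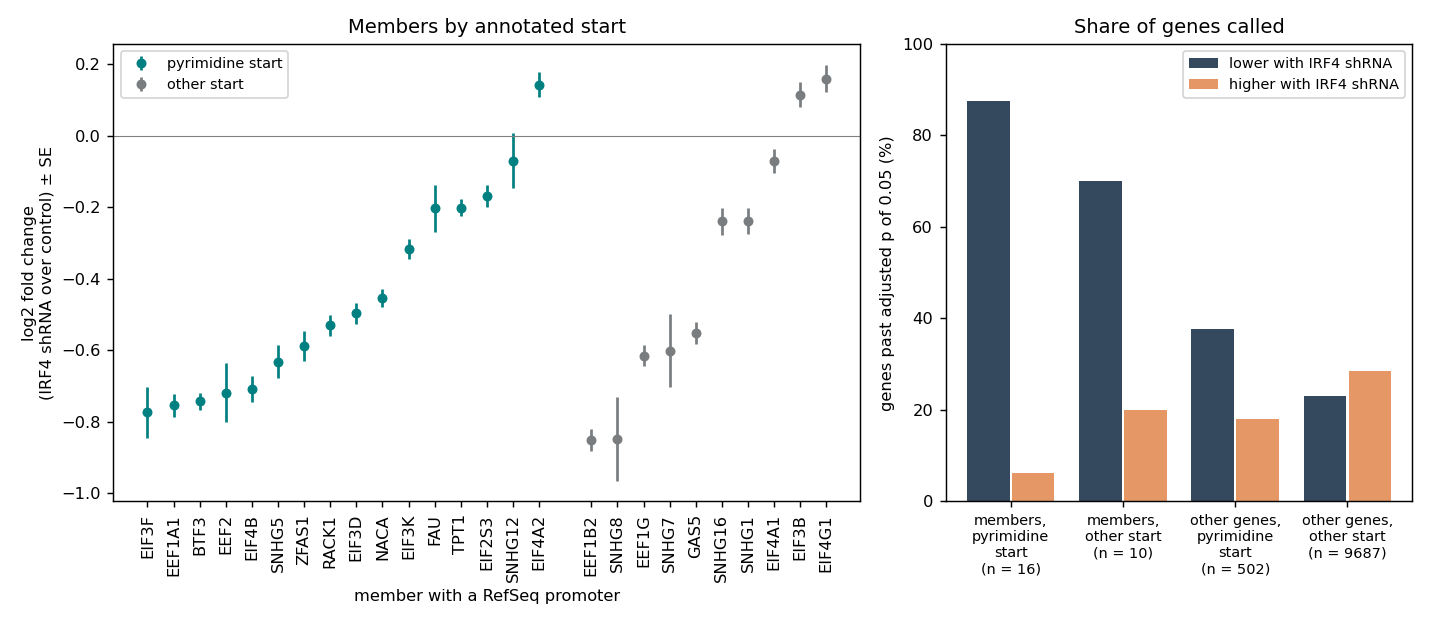
Left, log2 fold change with its SE of the 26 genes that have a RefSeq promoter, with a pyrimidine start (teal) or another start (grey). Right, percent of genes that fell (dark) or rose (orange) at an adjusted p under 0.05, where 87.5% of the 16 genes with a pyrimidine start and 37.6% of 502 other genes with one fell, against 23.1% of 9687 other genes without one.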

How the data were processed

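Poly(A) RNA libraries were made with a stranded TruSeq kit and read as 100 bp pairs, per the labels' protocols. STAR, HTSeq and build hg38 are named, per the submitters' processing notes, with no versions or roles. The authors deposited estimated counts per gene (expected counts), without normalization. Of the values 66.6% were whole (tolerance 1e-06), and how fractions arose, the annotation release and the strand setting are not given in the sources used here.

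Counts were rounded and tested with edgeR 4.0.16 in R 4.3.3 (quasi-likelihood, TMM, filterByExpr with a minimum count of 10, Benjamini-Hochberg over all genes tested), without a block or covariate, then within each series and as an interaction. SE is the log2 fold change over the square root of F. Percent of control is the ratio of mean CPM. Floors cover counting error only. Each library counted once. Pairs of replicates differed beyond counting noise (chi-square over degrees of freedom 2.73 to 31.9), which does not show that they are separate cultures. GC content was the median over GENCODE 29 transcripts. Promoter sequences are from RefSeq. Alternatives were DESeq2 1.42.0, other scalings, no filter, replicate blocks, GC correction, summed pseudogene copies and left-out libraries.

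On simulated counts with 100 changed genes per size, the comparison over all libraries recovered 66% of log2 changes of 0.5 and 85% of 1 (15998 genes), and the interaction 16% and 53% (16208 genes). Of the calls, 5.03% were false over all libraries and 8% in the interaction. Series 1 alone recovered 40% and 65%, with 3.67% of calls false, and series 2 alone 30% and 68%, with 9.26% false. Far fewer genes were changed in the simulation than the 7918 called in the data, and its libraries had no lean by GC content. The shares recovered and false in the data may therefore differ from these. The genes, lists and the rule for those named (role order, the largest, smallest, opposite and series-dependent changes by library) were chosen with earlier results of these data known.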

Additional observations from a re-analysis of the deposited data

Results flagged for a closer look

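Of 76 groups of 6 values examined (each of the 36 genes, IRF4 and the sum of the 36, in IRF4 shRNA and control libraries), 1 held a value far from its neighbours, where chance alone flags about 1 in 20 groups. SNHG12 had 20.7 CPM in IRF4 shRNA replicate 3, and the nearest other IRF4 shRNA library had 17.9 CPM.

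For 5 of the 36 genes and for IRF4 the effect differed between library series by the interaction test, a share of the 36 near that over all genes tested (7.99% with a negative and 5.03% with a positive difference). The difference of the log2 fold change, series 2 minus series 1, was -0.52 for EEF1D, -0.57 for EIF3G, -0.56 for SNHG7, -0.60 for SNHG8, 0.18 for EIF3A and 0.46 for IRF4. EIF3G passed in 18 of 21 alternatives, EEF1D, SNHG7 and SNHG8 in 8 each and EIF3A in 5. IRF4 shRNA libraries of series 1 deviated toward GC-rich genes (Spearman's rho across genes 0.24 to 0.33) and those of series 2 away from them (-0.35 to -0.21), and with the GC trend removed the difference for EEF1D was 0.002. How much of the other differences goes with GC content was not tested beyond the values given in the results.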

How the results depend on the processing

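Of the 36 genes, 30 kept their direction and their side of the threshold under all 23 alternatives fitted gene by gene. At an adjusted p under 0.01, 26 fell and 3 rose. The counts over all libraries ranged from 7544 to 8209 genes, 26 to 28 members lower and 4 higher when 1 library was left out. DESeq2's Wald test called 7986 genes. Restricted to at least 1.5-fold changes, 2953 genes, 14 members lower and 0 higher were called. Leaving out 1 library gave 26 to 28 lower and 3 to 4 higher members in series 1, and 24 to 30 lower and 2 to 3 higher in series 2. Members higher in series 1 numbered 5 with library size alone, and in series 2 they numbered 5 with library size alone, 4 with the GC trend removed and 4 without control replicates 5 and 6.

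The interaction was the least stable result, and the cause was not tested. It called 2248 genes and 5 members, against 1368 and 3 with the GC trend removed, 202 and 0 without control replicates 5 and 6, and 723 to 5244 and 0 to 17 when 1 library was left out. With the replicate number as a block, 1157 genes and 1 member were called, with the number in the library names 1283 and 2, and with the block and the GC trend removed 1075 and 3. The block over all libraries called 6942 genes (6918 by library name), and EIF3G (-0.28, adjusted p = 0.0838) and FAU (-0.20, adjusted p = 0.071) no longer passed, with folds close to -0.29 and -0.20 without it. Same-numbered deviations correlated between -0.43 and 0.24, and 0 of 6 libraries correlated best with their own number. With so few libraries these values cannot tell whether replicate numbers mark pairs, and the labels do not say.

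Signs turned for genes near 0. EIF3A was 0.0154 with the GC trend removed and 0.0151 with the block as well, 0.0695 with library size alone, 0.0065 without the filter, and -0.0252 to 0.028 when 1 library was left out. EEF1D (0.0387) and SNHG12 (0.0261) turned without control replicates 5 and 6, and EIF4A1 (0.0044) and SNHG12 (0.0038) with library size alone. Transcripts under the filter and changes near the SE of 0.02 to 0.12 are limited by depth and replicate number.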

Other observations

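Ribosomal protein genes had median log2 fold changes of -0.42 in library series 1 and -0.55 in series 2. The genes listed as other snoRNA hosts had -0.21 and -0.57, while the 36 genes had -0.46 in each. The difference between series was not tested for these lists.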
